A study of Mus musculus with 6 samples.

Results

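Cadherins and protocadherins are calcium-dependent adhesion proteins, and here their messenger RNA was compared between guts of Ret null and wildtype mouse embryos. The members were the lines of the deposited gene table whose symbol is Cdh followed by digits or begins with Pcdh, leaving out Cdh1, Cdh5, Cdh16 and Cdh19. They make up 54 of the 23233 lines used and carry 90 gene symbols. The authors had tested 31 of these 54 lines, against 13430 lines of the whole table.

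In the Ret null group, 3 gut samples come from embryos with both Ret alleles null, and the wildtype group is 3 gut samples. All carry the strain label C57BL/6J, were dissected at stage E10.5 and are described as male. Ret is the receptor tyrosine kinase through which GDNF acts on the neural crest cells that colonise the gut. Which part of Ret the allele lacks is not in the labels, nor whether Ret is lost from every cell, or whether a sample pools embryos. The table gives 1 FPKM value per genotype (mapped fragments per transcript length and library size) and none per sample. No spread between samples can therefore be shown, and the read depth is unknown.

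Classical cadherins hold cells of one kind together: their outer repeats bind the same cadherin on the next cell and their inner tails bind catenins, which connect to actin. Type I cadherins such as N-cadherin and P-cadherin mark whole tissues, while type II cadherins such as Cdh6 and Cdh11 mark smaller groups of mesenchymal, crest and neural cells. Protocadherins have the same kind of outer repeats with different tails, and are best known from the nervous system. Ret itself carries cadherin-like domains outside the membrane. In the gut, migrating crest cells are known to depend on N-cadherin for contact with each other.

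Fold changes are Ret null over wildtype, and the verbs rose and fell are kept for genes with a Cuffdiff q under 0.05 in the authors' table. The error after each ± is what the authors' test statistic implies for that log2 value, so it describes their table, and their q-values do not follow from it. For this reason a second p was taken from the same statistic as a normal deviate and adjusted over all tested lines. It is called the normal p below. The lowest Cuffdiff q of any tested line is 0.000775, and 6 members share it. Genes printed with this q are therefore not ranked by it.

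The targeted gene went with the labels. Ret had 0.0354 FPKM in the Ret null value and 8.80 FPKM in the wildtype value (the authors' deposited table gives q = 0.0042). Sex-linked genes went against the description of all embryos as male. Xist, transcribed from the inactive X of female cells, had 31.8 FPKM in Ret null and 0.136 FPKM in wildtype gut. The Y-linked Ddx3y, Eif2s3y, Kdm5d and Uty were 1.71-fold, 1.64-fold, 1.89-fold and 1.99-fold lower in Ret null gut. With 1 value per genotype no sample can be left out. Gut identity was present in both genotypes. The 8 gut epithelium markers summed to 297 FPKM in Ret null and 136 FPKM in wildtype gut, all 8 rising (Cdh1 is one of them), and the 7 gut mesenchyme and smooth muscle markers to 703 FPKM in Ret null and 287 FPKM in wildtype gut, 6 rising. Levels of other cell types differed as well and are given beside the genes they concern or with the last lists. Among them, liver markers summed to 299 FPKM in Ret null and 17.6 FPKM in wildtype gut. Somite and skeletal muscle markers summed to 5.54 FPKM in Ret null and 86.9 FPKM in wildtype gut. In whole guts, fewer cells of a type, less RNA per cell and unequal amounts of neighbouring tissue cannot be told apart.

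Of the 31 tested members, 8 were called lower, 3 were called higher and the other 20 did not pass. Over all tested lines 8.88% fell and 5.69% rose, 14.6% in all. The falls were in Cdh15, Cdh6, Cdh9, Cdh10, Cdh8, Pcdh8, Pcdh19 and Cdh2, and the rises in Cdh17, Pcdh10 and Cdh3. The median log2 fold change of the tested members was -0.15 with 1 FPKM added to both genotypes, against 0.01 over all tested lines. A line is tested only if it reaches enough reads in either genotype, so a weak gene can enter through the genotype in which it is higher. The highest value of an untested member was 0.888 FPKM. Of the called members, Cdh9, Cdh15 and Pcdh8 were below this in Ret null gut and above it in wildtype gut. The same holds for Celsr3 and Cdh19, which are no members and are given below. All 11 calls lay among the 23 tested lines outside the protocadherin clusters, and none among the 8 clustered lines. In those 8 clustered lines 0 had an unadjusted Cuffdiff p under 0.05 in the authors' deposited table, and 0 passed the normal p. The share of lines called differed with level, so the members were also counted by mean FPKM over both genotypes. Below 1 FPKM 1 of 4 tested members was called, where 34.7% of all tested lines were. From 1 to 2 FPKM 4 of 9 members were called, where 20.2% of lines were, and from 2 to 5 FPKM 4 of 9, where 22.3% were. From 5 to 20 FPKM 0 of 3 members were called, where 14.1% of lines were, and from 20 FPKM up 2 of 6, where 7.92% were. With the normal p 3 members remained, Cdh15, Cdh6 and Cdh10, all lower, where 2.78% of all tested lines were lower. At q under 0.01 9 members were called, where 9.81% of all lines were, and with a minimum of 1.5-fold 9 members, where 8.62% of all lines were.

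**Figure D1:**
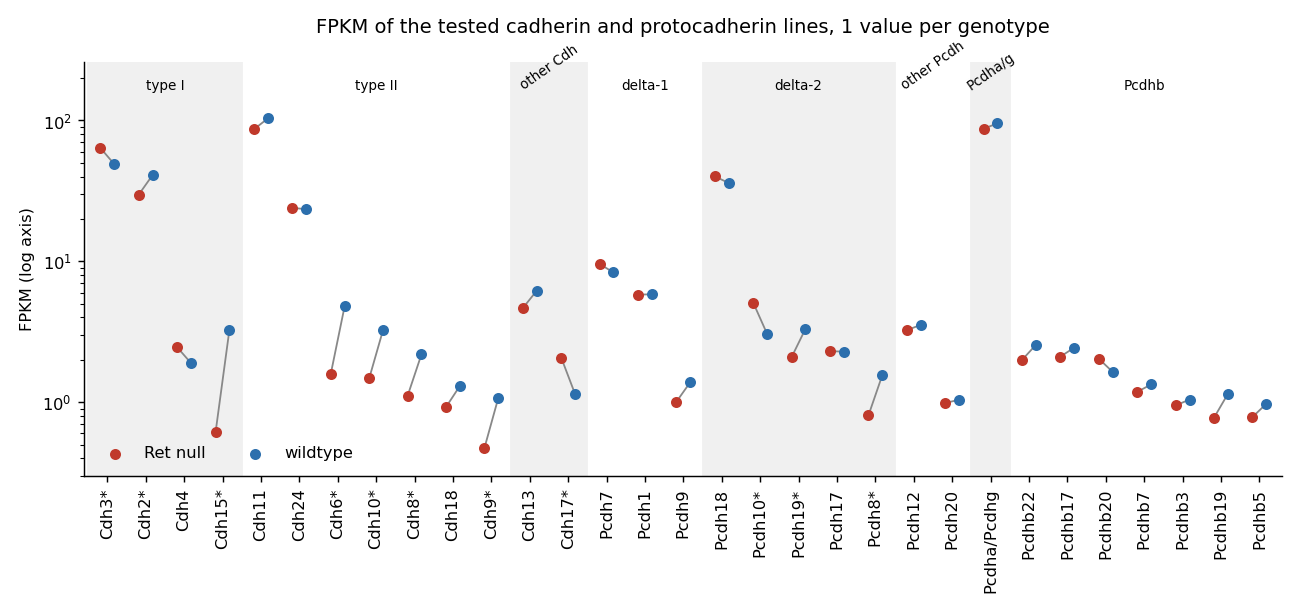
FPKM of the 31 tested lines on a log axis, 1 point per genotype with Ret null left of wildtype, grouped by subfamily; an asterisk marks a Cuffdiff q under 0.05 and shading only separates subfamilies. Cdh11, Cdh3, Cdh2, Cdh24, Pcdh18 and the merged Pcdha/Pcdhg line stand above 20 FPKM in both genotypes, and the steepest lines belong to Cdh15 and Cdh6.

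The start regions of the 3 members called with both kinds of p are shown first. Each run is RefSeq sequence of build GRCm38.p6 from 250 bases before to 50 bases after the annotated start, read 5′ to 3′ on the gene's strand. Capitals mark E-boxes, the letters CANNTG, which read the same pattern on both strands and are the class of site that basic helix-loop-helix factors of muscle and nerve cells recognise.
Cdh15 (chr8:122848124-122848423, plus strand): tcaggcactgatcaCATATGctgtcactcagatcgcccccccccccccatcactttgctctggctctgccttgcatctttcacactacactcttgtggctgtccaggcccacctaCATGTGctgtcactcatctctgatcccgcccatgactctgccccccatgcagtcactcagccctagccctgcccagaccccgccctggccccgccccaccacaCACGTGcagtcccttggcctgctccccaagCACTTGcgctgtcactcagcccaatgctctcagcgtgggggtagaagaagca
Cdh6 (chr15:13173626-13173925, minus strand): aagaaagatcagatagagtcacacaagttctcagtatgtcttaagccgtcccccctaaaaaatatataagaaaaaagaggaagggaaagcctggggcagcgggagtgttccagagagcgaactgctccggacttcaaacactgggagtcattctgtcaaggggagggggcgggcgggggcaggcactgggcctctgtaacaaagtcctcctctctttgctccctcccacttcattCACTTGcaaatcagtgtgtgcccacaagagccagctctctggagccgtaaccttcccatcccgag
Cdh10 (chr15:18820079-18820378, plus strand): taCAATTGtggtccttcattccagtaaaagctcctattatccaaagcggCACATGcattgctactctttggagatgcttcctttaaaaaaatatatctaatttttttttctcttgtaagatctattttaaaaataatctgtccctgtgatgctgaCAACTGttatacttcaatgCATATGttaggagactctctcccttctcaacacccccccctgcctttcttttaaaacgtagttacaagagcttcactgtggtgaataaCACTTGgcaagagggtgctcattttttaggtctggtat
The Cdh15 window holds 4 E-boxes, the Cdh6 window 1 and the Cdh10 window 5, and overlapping matches would have been counted separately. Of 32851 mouse promoter windows of the same length 72.3% hold at least 1, with a median of 1 per window. None of the 3 windows holds CAGCTG, the E-box core favoured by the myogenic factors, which 16.3% of all windows hold. The windows differ in base composition, at 61.3% G and C for Cdh15, 53.0% for Cdh6 and 37.7% for Cdh10, against a median of 52.7% over all windows. GGGCGG, the GC box, read on both strands, occurs 3 times in the Cdh15 window, 2 times in the Cdh6 window and 0 times in the Cdh10 window, and in 35.7% of all windows. The deposited Cdh15 and Cdh10 lines begin at the same base as the annotated start, and the Cdh6 line 36 bases from it. These matches are letters in a window and were not tested against any change.

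Type I cadherins split in direction. Cdh15, M-cadherin of skeletal muscle and its precursors, fell most of all members. It had 0.613 FPKM in Ret null gut and 3.26 FPKM in wildtype gut, 5.32-fold lower, a log2 fold change of -2.41 ± 0.50 (the authors' deposited table gives q = 0.000775). Of all tested lines 0.558% had a log2 fold change as low or lower. Its line covers the annotated gene on chromosome 8, 122848374 to 122867397 (mm10). The 8 somite and skeletal muscle markers moved with it: their 7 tested lines all fell, and summed to 5.54 FPKM in Ret null and 86.9 FPKM in wildtype gut. Their part in the result was not tested. None of these markers was listed at 0, with Myog at 1.07 FPKM in Ret null and 17.0 FPKM in wildtype gut and Myl1 at 1.09 FPKM in Ret null and 21.5 FPKM in wildtype gut.

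N-cadherin and P-cadherin, both abundant, moved apart by less. Cdh2, N-cadherin of neural, crest and mesodermal cells, had 29.8 FPKM in Ret null and 41.0 FPKM in wildtype gut, a log2 fold change of -0.46 ± 0.17 (the authors' deposited table gives q = 0.000775). Cdh3, P-cadherin, found chiefly in epithelia, had 63.8 FPKM in Ret null and 49.0 FPKM in wildtype gut, a log2 fold change of 0.38 ± 0.19 (the authors' deposited table gives q = 0.00372). The ratio of Cdh3 to Cdh2 FPKM was 2.14 in Ret null and 1.20 in wildtype gut. This ratio has no error of its own in the table and was not tested. With the normal p neither gene passed, with adjusted values of 0.127 for Cdh2 and 0.399 for Cdh3. Beside Cdh2, the 10 enteric crest and neuron markers summed to 37.5 FPKM in Ret null and 102 FPKM in wildtype gut, 9 of 10 falling and none listed at 0. Of the mesodermal lists, the somite and skeletal muscle markers fell in 7 of 7 tested lines and the nephric and gonadal ridge markers in 5 of 5. The gut mesenchyme and smooth muscle markers went the other way, 6 of 7 rising. Beside Cdh3, the gut epithelium markers given above all rose, as did the 7 liver markers. The part of these lists in either result was not tested. Cdh4, the R-cadherin of retina, brain and muscle, had 2.45 FPKM in Ret null and 1.89 FPKM in wildtype gut (0.37 ± 0.29) and did not pass (the authors' deposited table gives q = 0.137).

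**Figure D2:**
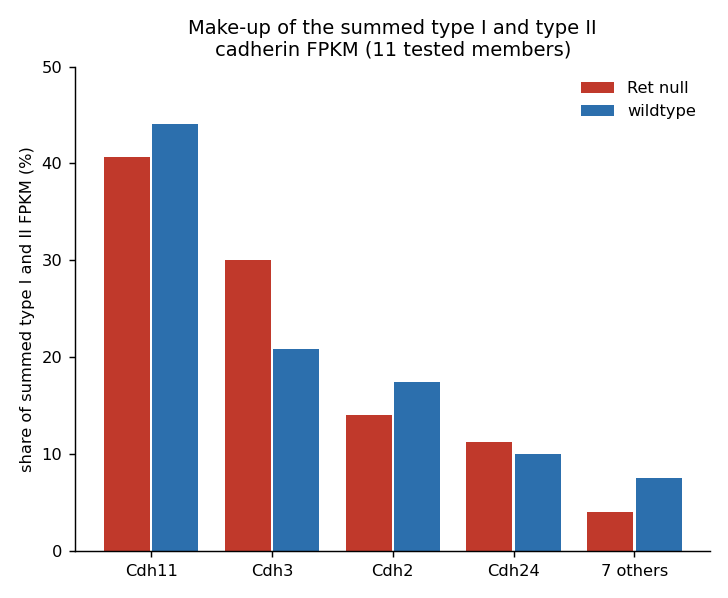
Share of the summed FPKM of the 11 tested type I and type II members taken by each gene, in percent, Ret null bar left of the wildtype bar; values are the authors' FPKM and have no error bars. Cdh11 holds the largest share in both genotypes, and the share of Cdh3 is 30.0% in Ret null and 20.9% in wildtype gut.

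A few genes made up most of the classical cadherin FPKM. Cdh11, Cdh3, Cdh2 and Cdh24 together made up 95.9% of the summed type I and type II FPKM in Ret null gut and 92.4% in wildtype gut, Cdh1 not being counted. The 7 other tested members together held 4.06% in Ret null and 7.57% in wildtype gut, and 5 of the 6 type I and type II falls are among them. The summed FPKM of the type I members was 96.7 in Ret null and 95.2 in wildtype gut, and that of the type II members was 116 in Ret null and 139 in wildtype gut. Cdh11, which did not pass, made up 86.7 FPKM of the type II sum in Ret null and 103 FPKM in wildtype gut.

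Among type II cadherins 4 of 7 tested members fell and 0 rose, where 8.88% of all tested lines fell, and 6 of the 7 had a lower value in Ret null gut. The 4 that fell had means below 5 FPKM, where 20.2% to 34.7% of all tested lines were called in either direction. The count of rises was also 0 at an unadjusted Cuffdiff p under 0.05 and by the normal p. Cdh6, K-cadherin, known in premigratory neural crest and in the developing kidney, had 1.59 FPKM in Ret null and 4.80 FPKM in wildtype gut. This is 3.01-fold lower, a log2 fold change of -1.59 ± 0.38 (the authors' deposited table gives q = 0.000775). Of all tested lines 1.24% had one as low or lower. Cdh10, a cadherin of the brain, had 1.48 FPKM in Ret null and 3.25 FPKM in wildtype gut (-1.14 ± 0.37, and the authors' deposited table gives q = 0.000775). With the normal p it passed narrowly, at an adjusted value of 0.0443.

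Cdh8 and Cdh9, both known from synapses and neuron subtypes, fell at low levels of expression. Cdh8 had 1.11 FPKM in Ret null and 2.18 FPKM in wildtype gut (-0.98 ± 0.44, and the authors' deposited table gives q = 0.00318). Cdh9 had 0.472 FPKM in Ret null and 1.07 FPKM in wildtype gut (-1.18 ± 0.58, and the authors' deposited table gives q = 0.0182). Neither passed with the normal p, at adjusted values of 0.292 for Cdh8 and 0.409 for Cdh9, and Cdh9 did not pass q under 0.01. Cdh9, counted among the type II and chromosome 15 falls, may have been tested only through its wildtype value. A predicted gene on the opposite strand overlaps 6.33% of the annotated Cdh9 exon bases, and strand use in counting is not given in the sources used here. Beside these falls, the nephric and gonadal ridge markers, some of whose cells also use Cdh6, fell in 5 of 5 tested lines and summed to 31.0 FPKM in Ret null and 67.6 FPKM in wildtype gut. These, the crest and neuron markers and the somite and skeletal muscle markers moved with the type II falls, and their part was not tested.

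The strongest type II gene did not pass. Cdh11, OB-cadherin of mesenchyme, had 86.7 FPKM in Ret null and 103 FPKM in wildtype gut (-0.25 ± 0.18, and the authors' deposited table gives q = 0.101). Cdh24 had 24.0 FPKM in Ret null and 23.5 FPKM in wildtype gut (0.03 ± 0.18, and the authors' deposited table gives q = 0.937). Cdh18 had 0.923 FPKM in Ret null and 1.30 FPKM in wildtype gut (-0.50 ± 0.51, and the authors' deposited table gives q = 0.335). The mesenchymal markers given above were higher in Ret null gut, whereas Cdh11 was not.

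Of the type II genes 5 lie near each other on chromosome 15. Cdh6, Cdh9, Cdh10, Cdh12 and Cdh18 stand in that order within 10.4 Mb, with gaps of 1.45 to 3.60 Mb between neighbours and 3 of the 4 tested genes falling, where 8.88% of all tested lines fell. Their log2 fold changes in that order were -1.59, -1.18, -1.14, -1.08 and -0.50, with Cdh12 below the authors' limit for testing and Cdh18 not passed. Low values also stood elsewhere among type II genes, with Cdh8 on chromosome 8 at -0.98 and called, and Cdh7 on chromosome 1 at -1.57 and not tested. On chromosome 8 the calls went both ways, with Cdh8 lower, Cdh11 not passed, Cdh3 higher, Cdh13 not passed and Cdh15 lower along 23.8 Mb. On chromosome 14, 1 of 5 tested members fell (Pcdh8).

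**Figure D3:**
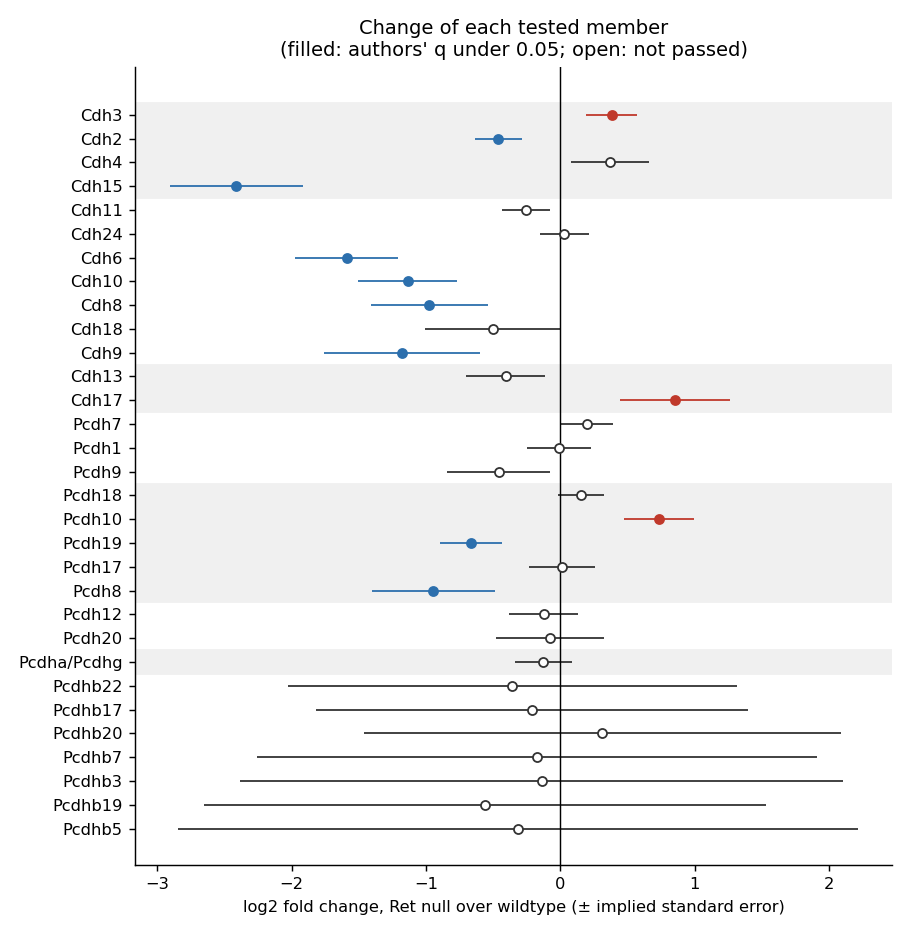
Log2 fold change of each tested member, Ret null over wildtype, with bars of 1 implied standard error; filled points have a Cuffdiff q under 0.05 (blue lower, red higher in Ret null gut) and open points do not. Shading only separates subfamilies, and the Pcdhb bars at the bottom are the widest.

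Of the remaining cadherins, Cdh17 rose. Cdh17, LI-cadherin of the intestinal epithelium, had 2.07 FPKM in Ret null and 1.14 FPKM in wildtype gut, a log2 fold change of 0.86 ± 0.41 (the authors' deposited table gives q = 0.00837). Its line covers the annotated gene on chromosome 4, 11758157 to 11817905 (mm10). It moved with the gut epithelium markers. The liver markers (7 of 7) and the gut mesenchyme and smooth muscle markers (6 of 7) rose as well. The part of these lists was not tested. Cdh17 did not pass with the normal p, at an adjusted value of 0.371. Cdh1, E-cadherin, left out of the members, had 22.8 FPKM in Ret null and 10.6 FPKM in wildtype gut and rose with both kinds of p. Cdh13, T-cadherin, which is held by a lipid anchor and has no catenin-binding tail, had 4.66 FPKM in Ret null and 6.18 FPKM in wildtype gut (-0.41 ± 0.30). It did not pass (the authors' deposited table gives q = 0.104).

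Of 10 tested single-gene protocadherins 2 fell and 1 rose, and these 3 were delta-2 members, a group with 5 tested. Over all tested lines 8.88% fell and 5.69% rose. The called genes had means between 1 and 5 FPKM, where 20.2% and 22.3% of all tested lines were called. Pcdh1, Pcdh7 and Pcdh18, not called, had means above 5 FPKM, where 14.1% and 7.92% were called. Pcdh19, X-linked and known from human epilepsy, had 2.09 FPKM in Ret null and 3.32 FPKM in wildtype gut (-0.66 ± 0.23, and the authors' deposited table gives q = 0.000775). Beside it stand the Xist values above. Over 473 tested X-linked lines 12.5% fell and 5.29% rose, and their median log2 difference was -0.04 with 1 FPKM added. Pcdh8, whose product is also called paraxial protocadherin and is made in the mesoderm that forms somites, had 0.806 FPKM in Ret null and 1.55 FPKM in wildtype gut. Its log2 fold change was -0.95 ± 0.46 (the authors' deposited table gives q = 0.0109), and it did not pass q under 0.01. The somite and skeletal muscle markers moved with it and their part was not tested. A predicted gene on the opposite strand overlaps 9.61% of its exon bases. The Pcdh8 line covers the annotated gene on chromosome 14, 79766772 to 79771312 (mm10).

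Pcdh10 went the other way. Pcdh10, OL-protocadherin of axon tracts, had 5.08 FPKM in Ret null and 3.06 FPKM in wildtype gut, a log2 fold change of 0.73 ± 0.26 (the authors' deposited table gives q = 0.000775). The ratio of Pcdh10 to Pcdh19 FPKM was 2.43 in Ret null and 0.923 in wildtype gut, not tested. With the normal p the adjusted values were 0.0887 for Pcdh10, 0.0739 for Pcdh19 and 0.383 for Pcdh8. Pcdh18, the most abundant single-gene protocadherin, had 40.1 FPKM in Ret null and 36.0 FPKM in wildtype gut (0.15 ± 0.17), and Pcdh17 had 2.30 FPKM in Ret null and 2.28 FPKM in wildtype gut (0.01 ± 0.25). Neither passed.

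In the delta-1 group 0 of 3 tested members passed with either kind of p. Pcdh7 had 9.58 FPKM in Ret null and 8.34 FPKM in wildtype gut (0.20 ± 0.19), and 21.1% of its exon bases are overlapped by a gene on the opposite strand. Pcdh1 had 5.80 FPKM in Ret null and 5.84 FPKM in wildtype gut (-0.01 ± 0.24). Pcdh9 had 1.01 FPKM in Ret null and 1.39 FPKM in wildtype gut (-0.46 ± 0.39), and the authors' deposited table gives an unadjusted p of 0.0392 and q = 0.179. Pcdh12, which is best known from endothelium, had 3.25 FPKM in Ret null and 3.54 FPKM in wildtype gut (-0.12 ± 0.25), and Pcdh20 had 0.987 FPKM in Ret null and 1.04 FPKM in wildtype gut (-0.08 ± 0.40). Both stayed above q of 0.05. Beside Pcdh12, 3 of 6 endothelial markers fell, where 8.88% of all tested lines fell, and 0 of the 6 passed with the normal p. The 6 summed to 130 FPKM in Ret null and 159 FPKM in wildtype gut.

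**Figure D4:**
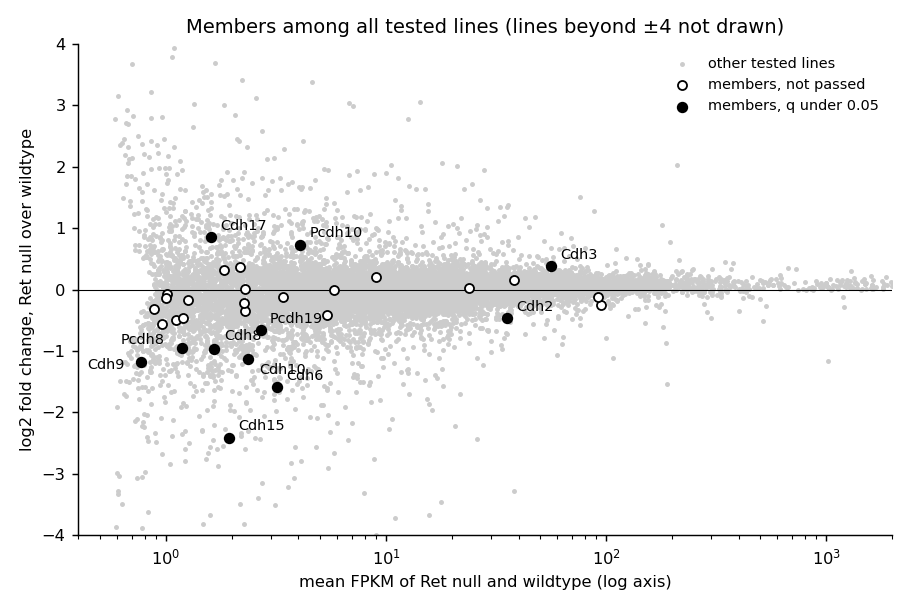
Log2 fold change, Ret null over wildtype, against mean FPKM on a log axis for the tested lines within the axes (grey), with tested members in black, filled where the Cuffdiff q was under 0.05. Most called members lie between 1 and 5 FPKM, and Cdh2 and Cdh3 are the only called members above 20 FPKM.

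The clustered protocadherins, whose Pcdha, Pcdhb and Pcdhg arrays on chromosome 18 give neurons combinations of surface labels by choice of promoter, showed no call. The table merges 15 Pcdha and 22 Pcdhg symbols into 1 line, so these families cannot be told apart. The merged line had 87.4 FPKM in Ret null and 95.5 FPKM in wildtype gut, a log2 fold change of -0.13 ± 0.21 (the authors' deposited table gives q = 0.633). Its level exceeded that of 94.6% of tested lines, in mean FPKM. Of 22 Pcdhb genes 7 were tested, at means of 0.880 to 2.28 FPKM, with log2 fold changes of -0.56 to 0.31. Over all 22 Pcdhb lines, 18 had a lower value in Ret null gut, 3 a higher one, and Pcdhb1 was listed at 0 in both. Their FPKM summed to 15.2 in Ret null and 17.9 in wildtype gut. These lines lie in 1 array and can share reads, so they are not separate observations of a direction.

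The Pcdhb tests were much less precise than others at the same level. Their implied standard errors ran from 1.61 to 2.53 on the log2 scale, with a median of 2.08. The 8 other tested members in the same range of mean FPKM had errors of 0.29 to 0.51, and 1677 tested lines that are no members had a median of 0.48. Of those, 47 (2.80%) had an error as large as the smallest Pcdhb error. All 23 clustered lines carry the same locus in the table, and the bodies of Pcdhb genes lie inside the span of the merged line. A difference of the size seen for Cdh6 was therefore not detectable in a Pcdhb gene here.

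**Figure D5:**
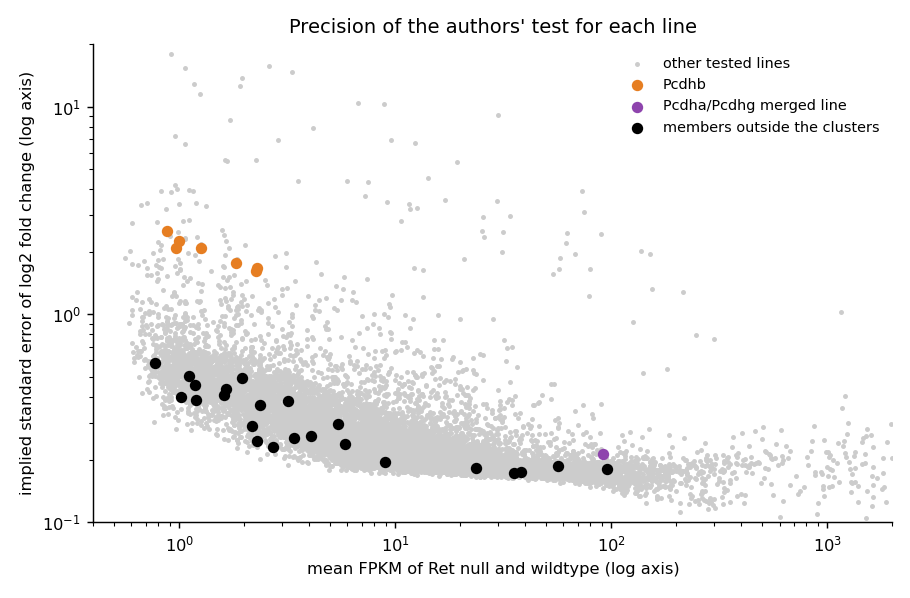
Implied standard error of the log2 fold change against mean FPKM, both on log axes, for the tested lines within the axes (grey), the 7 tested Pcdhb lines (orange), the merged Pcdha/Pcdhg line (purple) and the members outside the clusters (black). The Pcdhb points lie from 1.61 to 2.53, above every other member.

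The 23 untested member lines all stood under 1 FPKM in both genotypes, the highest being 0.888 FPKM for Pcdh11x in wildtype gut. Of them 18 were lower and 4 higher in Ret null gut, with no test. Of all tested lines 48.0% were lower, but those passed the limit for testing and are not a like set. The share among all untested lines was not counted. Most of the 23 are Pcdhb lines of 1 array, which are not separate observations of a direction. Outside the Pcdhb family, Cdh23, a hair-cell cadherin, had 0.414 FPKM in Ret null and 0.811 FPKM in wildtype gut. Cdh12 had 0.270 FPKM in Ret null and 0.572 FPKM in wildtype gut. Cdh7, a type II cadherin of migrating crest cells in chick, had 0.105 FPKM in Ret null and 0.311 FPKM in wildtype gut. Cdh26, Cdh22, Cdh20, Pcdh15 and Pcdh11x had log2 differences of -0.54, -0.14, 0.03, 0.22 and -0.34.

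Catenins carry the cadherin signal to the cell's inside. Of 13 tested catenins and other cytoplasmic partners 0 fell and 1 rose, where 8.88% of all tested lines fell and 5.69% rose. Their median log2 difference was 0.03 with 1 FPKM added, and with the normal p none passed in either direction. By the unadjusted Cuffdiff p under 0.05 the count was 0 lower and 2 higher. The riser was Pkp4, a catenin-like junction protein, at 21.7 FPKM in Ret null and 16.9 FPKM in wildtype gut (0.36 ± 0.19, and the authors' deposited table gives q = 0.0105). Ctnnb1, beta-catenin, had 433 FPKM in Ret null and 431 FPKM in wildtype gut, and Ctnna1, alpha-catenin, 103 FPKM in Ret null and 101 FPKM in wildtype gut. Of 7 tested proteases and gamma-secretase parts that cut cadherins 0 passed by q, by the unadjusted Cuffdiff p under 0.05 or by the normal p, with Mmp14 at 107 FPKM in Ret null and 105 FPKM in wildtype gut and Ncstn at 45.4 FPKM in Ret null and 45.9 FPKM in wildtype gut.

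Among 10 tested atypical cadherins 3 fell and 1 rose, where 8.88% of all tested lines fell and 5.69% rose. Their median log2 difference was 0.06 with 1 FPKM added. The called genes had means under 1 FPKM or from 2 to 5 FPKM, where 34.7% and 22.3% of all tested lines were called in either direction. Fat3, a giant cadherin of neurons, had 1.38 FPKM in Ret null and 2.74 FPKM in wildtype gut (-0.99 ± 0.22). Celsr3, which guides axons, had 0.478 FPKM in Ret null and 1.22 FPKM in wildtype gut (-1.35 ± 0.35), and Clstn2, a synaptic calsyntenin, had 1.71 FPKM in Ret null and 4.14 FPKM in wildtype gut (-1.27 ± 0.31). For all 3 falls the authors' deposited table gives q = 0.000775, and all 3 passed with the normal p. They moved with the crest and neuron markers, and also with the somite and skeletal muscle and the nephric and gonadal ridge markers. The part of these lists was not tested. Celsr1, a planar polarity gene of epithelia, had 5.39 FPKM in Ret null and 4.06 FPKM in wildtype gut (0.41 ± 0.20, and the authors' deposited table gives q = 0.00517). It did not pass with the normal p, at an adjusted value of 0.379. Dchs1 and Fat1, the strongest of the list with Clstn1, had log2 fold changes of 0.04, -0.03 and 0.19 in the order Dchs1, Fat1, Clstn1 and did not pass.

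Of the desmosomal cadherins only Dsc2 and Dsg2 were tested. Dsg2 had 7.57 FPKM in Ret null and 5.31 FPKM in wildtype gut (0.51 ± 0.21, and the authors' deposited table gives q = 0.000775), and Dsc2 had 4.57 FPKM in Ret null and 4.71 FPKM in wildtype gut. With the normal p Dsg2 did not pass, at an adjusted value of 0.1995. Of 11 tested regulators of the clustered protocadherin promoters 1 fell and 0 rose, where 8.88% of all tested lines fell and 5.69% rose. Their median was -0.05 on the same scale. By an unadjusted Cuffdiff p under 0.05 the count was 2 lower and 0 higher, and by the normal p 1 lower and 0 higher. The fall was in Nipbl, which loads cohesin on DNA, at 11.3 FPKM in Ret null and 17.3 FPKM in wildtype gut (-0.61 ± 0.18, and the authors' deposited table gives q = 0.000775). Nipbl also passed with the normal p, at an adjusted value of 0.0258. Ctcf, which binds those promoters, had 42.7 FPKM in Ret null and 40.2 FPKM in wildtype gut (0.09 ± 0.18), and the cohesin subunit Rad21 had 97.9 FPKM in Ret null and 89.4 FPKM in wildtype gut (0.13 ± 0.18). Neither passed. Of the other cadherins that the choice of members leaves out, Cdh19 of Schwann cell precursors had 0.429 FPKM in Ret null and 1.30 FPKM in wildtype gut and fell (the authors' deposited table gives q = 0.00145), but did not pass with the normal p, at an adjusted value of 0.105. Cdh16, a kidney cadherin, had 2.001 FPKM in Ret null and 5.84 FPKM in wildtype gut (-1.55 ± 1.22) and did not pass. Cdh5 of endothelium had 36.2 FPKM in Ret null and 37.6 FPKM in wildtype gut and did not pass. Other marker lists stood as follows: liver markers summed to 299 FPKM in Ret null and 17.6 FPKM in wildtype gut with 7 of 7 rising, macrophage markers to 49.5 FPKM in Ret null and 49.4 FPKM in wildtype gut with 0 of 5 passing, blood markers to 3814 FPKM in Ret null and 6240 FPKM in wildtype gut with 3 of 5 falling and 1 rising, and mesothelium markers to 66.2 FPKM in Ret null and 81.4 FPKM in wildtype gut with 2 of 4 falling and 1 rising.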

How the data were processed

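Messenger RNA of 6 gut samples, 3 Ret null and 3 wildtype, was selected with oligo-dT beads and sequenced from Illumina TruSeq libraries, per the labels' protocols. Per the submitters' processing notes, Picard, TopHat2, Cufflinks and Cuffdiff were used with build mm10; versions, settings and the annotation are not stated there. In the deposited table the authors give 1 FPKM value for each genotype's libraries, with their p-value, q-value and test statistic (a score), per the file headers. Its genotype letters were read as wildtype and homozygous null. Replicates cannot be seen, so the p-values are the authors', and the labels do not tell whether samples are separate litters. Depth is unknown, so no counting intervals are given.

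Of 23234 lines, 1 whose columns were shifted by a second gene identifier was not used. Log2 fold changes were recomputed from FPKM, and 1 FPKM was added to both genotypes for medians. The implied standard error is the log2 fold change divided by the test statistic. The normal p was adjusted by the Benjamini-Hochberg method over the 13430 tested lines, of which 8 without a numeric statistic counted as not passing. The code of this step was run on simulated normal deviates. That cannot show whether the authors' statistic behaves as a normal deviate. Starts in the table count from 0, so 1 was added, and coordinates are printed only where start and end equal the RefSeq gene table of GRCm38.p6 (4 of 31 single-symbol members outside the clusters). Promoter windows are from RefSeq, GRCm38.p6, and were found for 15 tested members off chromosome 18. Exon overlaps used GENCODE release M21. Named genes were the members called or at 5 FPKM or more, the other tested members, and of each further list the called genes and the highest ones. The members and lists were chosen with earlier results of these data known. Python 3.11.15, pandas 2.3.3, numpy 2.4.6, scipy 1.17.1 and matplotlib 3.10.9 were used.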

Additional observations from a re-analysis of the deposited data

How the results depend on the processing

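The 11 members called by the authors' q were 9 at q under 0.01, 11 at q under 0.1, 9 with a 1.5-fold minimum, and 11 at 1 FPKM or more. Leaving out the merged line, which was not called, and rescaling to a median of 0, which shifts log2 values by 0.01 and leaves the authors' q as it is, could not alter this count. With the normal p 3 members were called, all lower. At 5 FPKM or more, where fewer lines enter, 3 members were called, 1 lower and 2 higher. The main count was 8 lower and 3 higher, so the balance of directions was not kept at that level. The companion lists, whose alternatives were chosen after seeing the data, had 9 calls, 5 lower and 4 higher. These were 5 with the normal p (4 lower, 1 higher) and 5 at 5 FPKM or more (1 lower, 4 higher). Why the normal p gives fewer calls was not tested. The members' median log2 fold change of -0.15 was -0.20 with 0.1 FPKM added, -0.066 with 5 FPKM added, -0.12 with untested lines, -0.14 at 1 FPKM or more and -0.16 with the Pcdhb lines merged. The log2 ratio of the summed clustered protocadherin FPKM was -0.13, and -0.14 with untested lines. Of the 18 members named by rule 8 lost their call with the normal p. Adding the same FPKM to both genotypes cannot turn a direction, so it was no check of it. No paired analysis was possible because the table holds 1 value per genotype, and for the same reason no replicate could be left out.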
